A study of Mus musculus with 4 samples.

Results

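The genes described here encode the machinery that makes microRNAs and puts them to work: Drosha and Dgcr8, Xpo5, Dicer1 and Tarbp2, and the 4 Argonautes Ago1, Ago2, Ago3 and Ago4. They were taken by symbol from the deposited counts, and all 9 were found among 55487 genes. Wild-type mouse embryonic fibroblasts (MEFs, primary cells with a limited life span in culture) at passage 2 according to the labels, or P3 in the paper's text, received PEDF (100 ng/mL) for 24 h or were left untreated. PEDF (pigment epithelium-derived factor) is a secreted glycoprotein of the serpin family, and the preparation added here came from mammalian cells. There were 2 experiments, each with MEFs from other embryos and each with 1 control and 1 PEDF library, called control 1, control 2, PEDF 1 and PEDF 2 after the experiment. Polyadenylated RNA was sequenced, so the values below are messenger RNA levels and not levels of mature microRNAs or of protein.

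A microRNA begins as a hairpin within a long nuclear transcript. The Microprocessor, made of the nuclease Drosha and its RNA-binding partner Dgcr8, cuts the hairpin out, Exportin-5 (Xpo5) carries it to the cytoplasm, and Dicer (Dicer1), helped by the double-stranded RNA-binding protein TRBP (Tarbp2), trims it to a short duplex. One strand of the duplex is kept by an Argonaute protein, which it guides to matching messenger RNAs. The 4 mouse Argonautes all bind microRNAs, and Ago2 is the member best known for slicing a fully paired target.

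Sequences of 2 kinds within these genes bear on what their counts can hold. The first lies in Dgcr8, whose own messenger RNA carries hairpins that the Microprocessor is known to cut. In RefSeq on GRCm38.p6, 2 annotated microRNA hairpins lay within its exons on the minus strand, that of miR-1306 in coding sequence at chr16:18284239-18284317 and that of miR-3618 in the 5 prime UTR at chr16:18284550-18284637. Their mature strands are shown 5′ to 3′ with the seed (bases 2 to 8) in capitals, and no 2 of them shared a seed.
mmu-miR-1306-5p: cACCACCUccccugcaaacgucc
mmu-miR-1306-3p: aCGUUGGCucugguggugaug
mmu-miR-3618-5p: uGUGAUUUccaauaauugaggc
mmu-miR-3618-3p: cUACAUUAaugaaaagagcaau
Both hairpin genes, Mir1306 and Gm24572, were listed with 0 counts in all 4 libraries, which allows up to 3 counts in each by counting error, while Dgcr8 itself had 689 to 957 counts. Reads over the hairpins lie in 2 annotated genes, and how the authors' counting treated such reads is not given in the sources used here.

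The other is the sequence that the Argonaute paralogues share. The coding sequences of the 4 genes in GENCODE M21 (GRCm38) were 73.2% to 76.8% identical in pairs, yet Ago1 and Ago3, which are neighbours on chromosome 4, held a stretch of 170 identical nucleotides. It lay at positions 1402 to 1571 of the Ago1 coding sequence and 1411 to 1580 of the Ago3 coding sequence, across 2 splice junctions in each, within chr4:126443240-126453565 and chr4:126355165-126367655 on the minus strand. Below, the identical part is in capitals, with 12 nucleotides of coding sequence on either side, which the coordinates include.
Ago1 (shared with Ago3): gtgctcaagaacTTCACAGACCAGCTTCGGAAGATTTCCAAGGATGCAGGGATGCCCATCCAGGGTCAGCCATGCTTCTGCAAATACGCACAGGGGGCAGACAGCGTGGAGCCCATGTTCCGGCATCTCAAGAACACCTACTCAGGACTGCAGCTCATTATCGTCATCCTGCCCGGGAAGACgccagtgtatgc
Ago3 (shared with Ago1): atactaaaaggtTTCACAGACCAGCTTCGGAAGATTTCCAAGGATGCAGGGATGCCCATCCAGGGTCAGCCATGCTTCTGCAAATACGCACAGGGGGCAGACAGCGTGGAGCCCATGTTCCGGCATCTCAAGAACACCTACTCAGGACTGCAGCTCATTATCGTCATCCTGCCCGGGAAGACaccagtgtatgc
A read within a shared stretch cannot be assigned to 1 gene, and the authors counted uniquely mapped reads. Of the 8158 different 50-mers in Ago1 transcripts, 125 (1.53%) also occurred in Ago3 or Ago2, and of the 16562 in Ago3, 121 (0.73%) occurred in Ago1. Ago4 shared no 50-mer with another Argonaute. For Ago2, 3.46% of the 50-mers occurred in other genes, and none did for Xpo5. The share was 14.3% for Tarbp2, whose processed pseudogenes Gm18584 and Gm18561 had 22 to 30 counts and 0 to 1 count, against 841 to 1065 counts for Tarbp2. For Dgcr8 it was 15.0%, and Trmt2a, with 990 to 1257 counts, overlaps its exons by 825 bp on the opposite strand. Chrac1, with 354 to 413 counts, likewise overlaps Ago2 exons by 219 bp. The strand setting of the counting is not given in the sources used here.

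The libraries held 14722848 to 18144640 counts, and scaling factors of edgeR's TMM method lay between 0.983 and 1.01. Levels of a gene are compared between libraries in CPM (counts per 1000000 counts of the scaled library), and between genes in the deposited TPM, which divide by length. Fibroblast collagens were abundant (Col1a1, mean 8653 TPM). Of the leukocyte markers, the T cell gene Cd3e had 0 to 4 counts and Ptprc 46 to 73 counts. Cd68 had 126 to 156 counts (mean 19.3 TPM) and Adgre1 195 to 255 counts (mean 12.1 TPM). Summed over Ptprc, Cd68, Adgre1 and Cd3e, leukocyte markers were at 28.4 to 34.7 TPM in the control and 32.0 to 33.1 TPM in the PEDF libraries. The 3 skeletal muscle markers, Myod1, Myog and Des, were all detected in every library. In CPM all were higher with PEDF in both experiments, beside 30.1% of all genes. Myod1, however, hardly differed in experiment 2, at 16.48 CPM in control 2 and 16.56 CPM in PEDF 2. In TPM it was not higher there, at 25.63 and 25.60. The sum of the 3 markers was 153 and 167 TPM in control 1 and 2 and 168 and 185 TPM in PEDF 1 and 2. Endothelial (Pecam1, Cdh5, Kdr) and epithelial markers (Epcam, Cdh1, Krt5) summed to 3.57 to 4.04 TPM and 3.13 to 4.52 TPM, and their groups overlapped. The part of other cells in the results below was not tested, and in such bulk samples fewer cells of a type and less RNA per cell cannot be told apart.

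All 9 genes were expressed, Ago4 only weakly. They had 187 (Ago4) to 9164 (Ago2) counts in total, and all 9 passed the filter of 10 counts. In order of mean TPM over the 4 libraries, Xpo5 came first with 46.5 TPM (39.6 to 53.0), followed by Drosha with 41.5 TPM (40.2 to 43.6) and Tarbp2 with 36.5 TPM (35.3 to 37.8). Ago2 had 28.0 TPM (24.8 to 32.6). Ago1, Dgcr8 and Dicer1 lay close together at 18.4, 18.2 and 15.3 TPM, and Ago3 (3.31 TPM) and Ago4 (1.15 TPM) were lowest. The ranges of neighbours overlapped between Xpo5 and Drosha, between Ago1 and Dgcr8 and between Dgcr8 and Dicer1, and all other neighbours stood apart in all 4 libraries. Among the 19384 genes tested, Xpo5 stood at percentile 83.2 of mean TPM and Ago4 at percentile 19.8.

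This order rested in part on the length by which counts are divided. The length behind the deposited TPM was the summed length of all annotated exons, retained introns included, which gave Tarbp2 4549 bp and Dicer1 16750 bp, whereas their longest protein-coding transcripts had 1523 and 9851 nucleotides. When the counts were divided by the longest protein-coding transcript, Tarbp2 came first at 38.5 CPM per kb (37.4 to 39.2), above Xpo5 at 22.1 (19.5 to 24.7) and Drosha at 19.0 (18.5 to 19.6). On that scale Dgcr8 (11.4) lay above Ago2 (10.0), and Dicer1 (9.20) lay above Ago1 (7.32). Ago3 (1.24) and Ago4 (0.43) remained the lowest by both lengths.

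Ratios between partner genes of the pathway depended on the length used. The ratio of Drosha to Dgcr8 on TPM was 2.19 in control 1, 2.16 in control 2, 2.56 in PEDF 1 and 2.28 in PEDF 2, so both PEDF libraries lay above both controls. The ratio of Dicer1 to Tarbp2 was lower with PEDF, at 0.44 and 0.47 in control 1 and 2 and 0.39 and 0.38 in PEDF 1 and 2, with no overlap. The ratio of Ago2 to Dicer1 hardly moved, at 1.80, 1.84, 1.81 and 1.86 in control 1, control 2, PEDF 1 and PEDF 2. By the longest transcripts, the Drosha to Dgcr8 ratio was smaller, at 1.598 in control 1, 1.58 in control 2, 1.86 in PEDF 1 and 1.66 in PEDF 2, and again higher in both PEDF libraries than in both controls. The Dicer1 to Tarbp2 ratio was then 0.25 and 0.27 in control 1 and 2 and 0.22 in each PEDF library, again with no overlap. The Ago2 to Dicer1 ratio was then close to 1, at 1.07 in control 1, 1.10 in control 2, 1.08 in PEDF 1 and 1.11 in PEDF 2. The ratios were not tested, and dividing by another fixed length cannot alter their change with PEDF. For single genes, both PEDF libraries lay below both controls in 18.4% of all genes and above in 18.9%. Fold changes also went with gene length, as described below. In edgeR's fit with the block, removing that trend moved the log2 fold change of Dicer1 from -0.22 to -0.11. Tarbp2 went from 0.026 to 0.022, Dgcr8 from -0.15 to -0.11 and Drosha from -0.0055 to 0.012.

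PEDF was then compared with control. Without a term for the experiment, 0 of the 9 genes passed an adjusted p of 0.05 in edgeR's quasi-likelihood test, as did 0.00516% of the 19384 genes tested. At an unadjusted p under 0.05 there were 3 of the 9, namely Dicer1, Ago2 and Ago3, all lower with PEDF, beside 6.88% of all genes. DESeq2 gave 2 of the 9, Dicer1 and Ago2, beside 1.46% of the genes it tested. PEDF lay below control in both experiments for 5 of the 9 genes (Dgcr8, Xpo5, Dicer1, Ago2 and Ago3), beside 28.8% of all genes. Both PEDF libraries lay below both controls for 4 of the 9 (all of these except Xpo5), beside 18.4% of all genes, and above both for Ago4 alone, beside 18.9%. The median log2 fold change was -0.15 over the 9 genes and 0.00118 over all genes tested.

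When the experiment was fitted as a replicate block, so that each PEDF library was set against the control of its own embryos, 2 of the 9 genes passed the adjusted p of 0.05. These were Dicer1 and Ago2, both lower with PEDF. The same fit called 3.75% of all genes, and 2.07% as lower. Both calls rested on edgeR's block fit. In DESeq2 with the same block, Ago2 had an adjusted p of 0.209 at a log2 fold change of -0.21, and Dicer1 had an unadjusted p of 0.0442 in DESeq2 and no adjusted p. In edgeR, neither gene passed when the trend of the fold changes with gene length was removed as well. In the fit with the block, 1 of the 3 muscle markers rose, namely Des, with a log2 fold change of 0.19 and an adjusted p of 0.0309 in edgeR, and 3 of the 7 fibroblast markers fell, namely Col1a1, Col1a2 and Pdgfrb. With the length trend removed, Des (adjusted p 0.111) and Col1a2 (0.753) lost their calls in edgeR. The log2 fold change of Des was then 0.16, while that of Col1a2 went from -0.12 to -0.041. In DESeq2 with the block, Pdgfrb passed (adjusted p 0.0189), Col1a1 and Col1a2 did not (0.117 each), and Des had an unadjusted p of 0.0702 and no adjusted p. Their part in the values of Dicer1 and Ago2 was not tested.

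**Figure D1:**
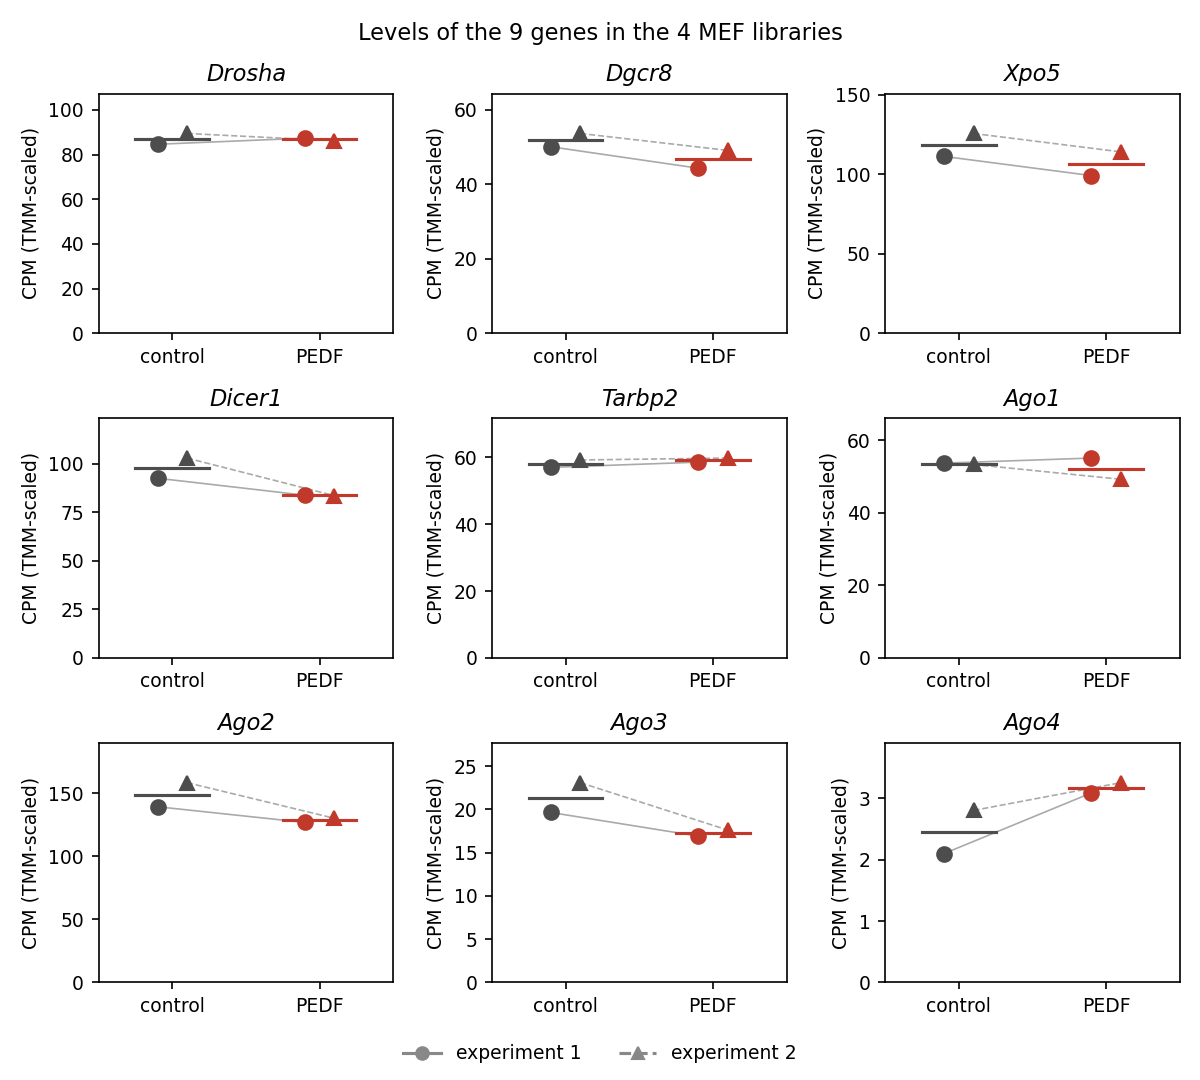
Level of each gene (y axis, TMM-scaled CPM, from 0) in the control and PEDF libraries (x axis). Circles and solid lines are experiment 1, triangles and dashed lines experiment 2, and horizontal bars the mean of a group. For Dicer1, Ago2, Ago3 and Dgcr8 both PEDF libraries lay below both controls, and for Ago4 both lay above.

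Of the Microprocessor, neither Drosha nor Dgcr8 passed the adjusted p of 0.05 in any fit that gave one. Drosha, the nuclease that makes the first cut (chr15:12824815-12935291, plus strand), had 84.6 CPM in control 1, 89.5 in control 2, 87.4 in PEDF 1 and 86.2 in PEDF 2. The PEDF libraries lay between the controls, and the log2 fold change was -0.00496 ± 0.075 (SE), with an adjusted p of 0.994 in edgeR's quasi-likelihood test. Dgcr8, which holds the hairpin in place (chr16:18253948-18289246, minus strand), had 50.1 and 53.7 CPM in control 1 and 2 and 44.3 and 49.1 CPM in PEDF 1 and 2. The groups did not overlap, but PEDF 2 came within 1 CPM of control 1. Its log2 fold change was -0.15 ± 0.087 (SE), with an adjusted p of 0.758 without the block and 0.304 with it in edgeR. The log2 ratio was -0.18 in experiment 1 (95% exact binomial interval -0.33 to -0.024) and -0.13 in experiment 2 (-0.26 to 0.00623).

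Xpo5, the exporter of hairpins (chr17:46202782-46243598, plus strand), had a lower level in the PEDF library of each experiment, and did not pass the adjusted p of 0.05 for PEDF in any fit. Its difference between the experiments passed in edgeR, at a log2 difference of 0.19. It did not pass with the length trend removed (0.17, adjusted p 0.0756), without the treatment term (0.19, 0.609) or in limma (0.24, 0.329). DESeq2 gave no adjusted p. It had 111 and 126 CPM in control 1 and 2, and 99.1 and 114 CPM in PEDF 1 and 2. Each PEDF library lay below the control of its own experiment, but PEDF 2 lay above control 1, so the groups overlapped. The log2 ratio of PEDF to control was -0.17 in experiment 1 (95% interval -0.27 to -0.064) and -0.14 in experiment 2 (-0.23 to -0.052). These intervals are exact binomial ones on the 2 counts and cover counting error only. In edgeR the log2 fold change was -0.15 ± 0.086 (SE) with an adjusted p of 0.758, or 0.101 with the block. An intron of Xpo5 holds the microRNA gene Mir693, which had 0 counts in all 4 libraries.

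Of the dicing genes, Dicer1 fell with PEDF in edgeR's fit with the block, and Tarbp2 did not pass in any fit that gave an adjusted p. Dicer1, the cytoplasmic nuclease (chr12:104687742-104751952, minus strand), had 92.4 and 103 CPM in control 1 and 2 and 83.7 and 83.5 CPM in PEDF 1 and 2. Both PEDF libraries lay below both controls and within 1 CPM of each other. The log2 fold change was -0.22 ± 0.078 (SE) with an unadjusted p of 0.0113 and an adjusted p of 0.696 in edgeR's quasi-likelihood test, and -0.22 ± 0.059 (SE) with an adjusted p of 0.00682 with the block. The log2 ratio was -0.14 in experiment 1 (95% interval -0.25 to -0.032) and -0.30 in experiment 2 (-0.40 to -0.20). Tarbp2, the partner of Dicer (chr15:102518192-102523676, plus strand), had 57.0 and 59.2 CPM in the controls and 58.5 and 59.8 CPM in the PEDF libraries. The groups overlapped, and the log2 fold change was 0.026 ± 0.080 (SE) with an adjusted p of 0.960 in edgeR. Its log2 ratio was 0.039 (-0.098 to 0.18) in experiment 1 and 0.014 (-0.11 to 0.14) in experiment 2.

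Among the Argonautes, Ago2 fell with PEDF in edgeR's fit with the block but not in that of DESeq2 (adjusted p 0.209), while Ago1, Ago3 and Ago4 were not called in edgeR's fit and had no adjusted p in that of DESeq2. Ago3 had the lowest log2 fold change of the 9 genes. Ago2 (chr15:73095844-73184935, minus strand), the slicing Argonaute, had 139 and 158 CPM in control 1 and 2 and 127 and 130 CPM in PEDF 1 and 2. The groups did not overlap, and the controls lay further apart than the PEDF libraries. The log2 fold change was -0.21 ± 0.077 (SE) with an unadjusted p of 0.0141 and an adjusted p of 0.696 in edgeR's quasi-likelihood test, and -0.21 ± 0.052 (SE) with an adjusted p of 0.00349 with the block. Within experiment 1 the log2 ratio was -0.14 (95% interval -0.22 to -0.045), and within experiment 2 it was -0.28 (-0.36 to -0.20).

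Ago3 (chr4:126331704-126429556, minus strand) had 19.7 and 23.1 CPM in control 1 and 2 and 16.9 and 17.6 CPM in PEDF 1 and 2, from 263 to 412 counts. Both PEDF libraries lay below both controls. The log2 fold change was -0.31 ± 0.12 (SE), with an unadjusted p of 0.0244 and an adjusted p of 0.696 in edgeR, or 0.106 with the block. In experiment 1 the counting interval of the log2 ratio reached from -0.46 to 0.030, and in experiment 2 from -0.61 to -0.17. Ago1 (chr4:126435012-126468583, minus strand) had 53.7 and 53.4 CPM in the controls and 55.1 and 49.3 CPM in the PEDF libraries. PEDF 1 was the highest and PEDF 2 the lowest of the 4, and the log2 fold change was -0.038 ± 0.085 (SE) with an adjusted p of 0.946 in edgeR.

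Ago4 (chr4:126489541-126533472, minus strand) had 31 and 50 counts in control 1 and 2 and 48 and 58 counts in PEDF 1 and 2, or 2.1, 2.8, 3.1 and 3.3 CPM. Both PEDF libraries lay above both controls, by less than the counting error: the log2 ratio was 0.56 in experiment 1 (95% interval -0.13 to 1.26) and 0.22 in experiment 2 (-0.36 to 0.79). The log2 fold change was 0.36 ± 0.29 (SE) with an adjusted p of 0.812 in edgeR's quasi-likelihood test.

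**Figure D2:**
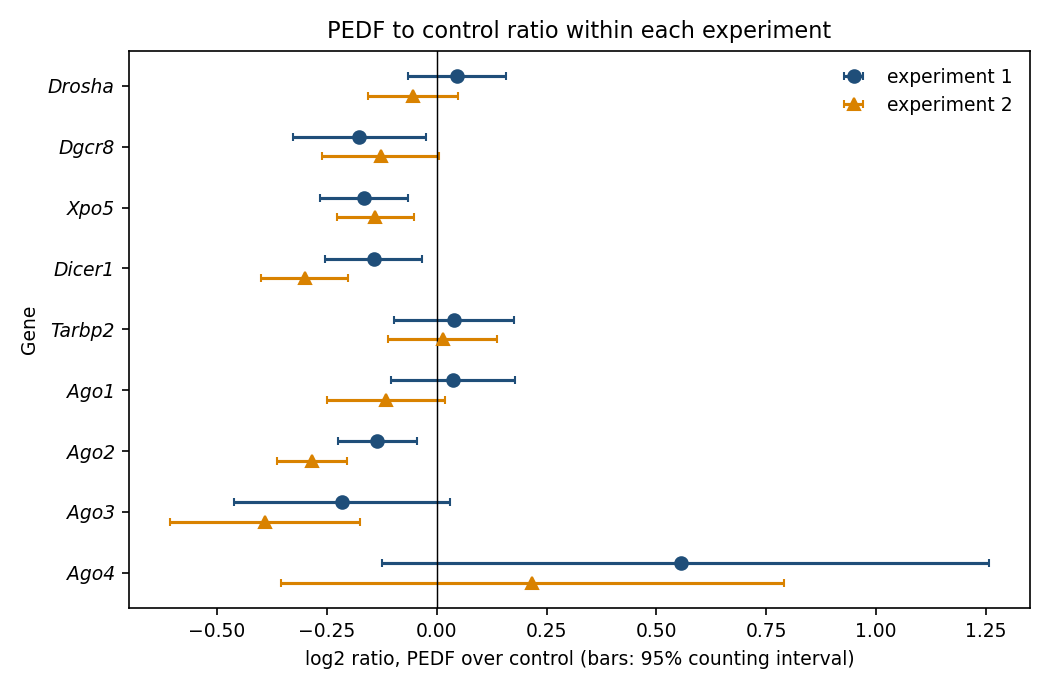
Log2 ratio of PEDF to control CPM (x axis) for each gene (y axis) in experiment 1 (circles) and experiment 2 (triangles), with 95% exact binomial intervals that cover counting error only. Both intervals lay below 0 for Xpo5, Dicer1 and Ago2, and both spanned 0 for Drosha, Tarbp2, Ago1 and Ago4. The share of all genes with such intervals was not computed.

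In the fit without the block, the 3 genes with the smallest p for PEDF were also the 3 longest. With the block, Xpo5 (unadjusted p 0.00589 in edgeR) came before Ago3 (0.00635). Dicer1, Ago3 and Ago2 had summed exon lengths of 16750, 16571 and 14031 bp, at percentiles 98.6, 98.5 and 97.3 of length. Their longest protein-coding transcripts held 3851, 12742 and 11064 nucleotides of 3 prime UTR. The other 6 genes had 4549 to 8120 bp. Among genes whose mean log2 CPM exceeded 3, the PEDF to control ratio went down with length in both experiments, by a slope of -0.040 and -0.056 on the log2 scale per doubling of length. In the fit with the block, the median log2 fold change was 0.092 over 1422 genes of up to 2000 bp and -0.12 over 699 genes of more than 12000 bp. Of these 699, 120 were called lower and 0 higher. Over 8000 bp, 10.3% of genes at this level were called lower.

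With the length trend of each library taken out in the fit with the block, 0 of the 9 genes passed, beside 1.68% of all genes. Ago2 then had a log2 fold change of -0.12 ± 0.050 (SE) with an adjusted p of 0.322 in edgeR, and Dicer1 one of -0.11 ± 0.057 (SE) with an adjusted p of 0.451. Ago3 was at -0.19 ± 0.11 (SE), and Xpo5, of 6859 bp, went from -0.15 to -0.12. At an unadjusted p under 0.05, Ago2 (0.0248) and Xpo5 (0.0231) remained, beside 11.6% of all genes in that fit, and Dicer1 had a p of 0.0550 in edgeR. The median over the 9 genes was -0.11.

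**Figure D3:**
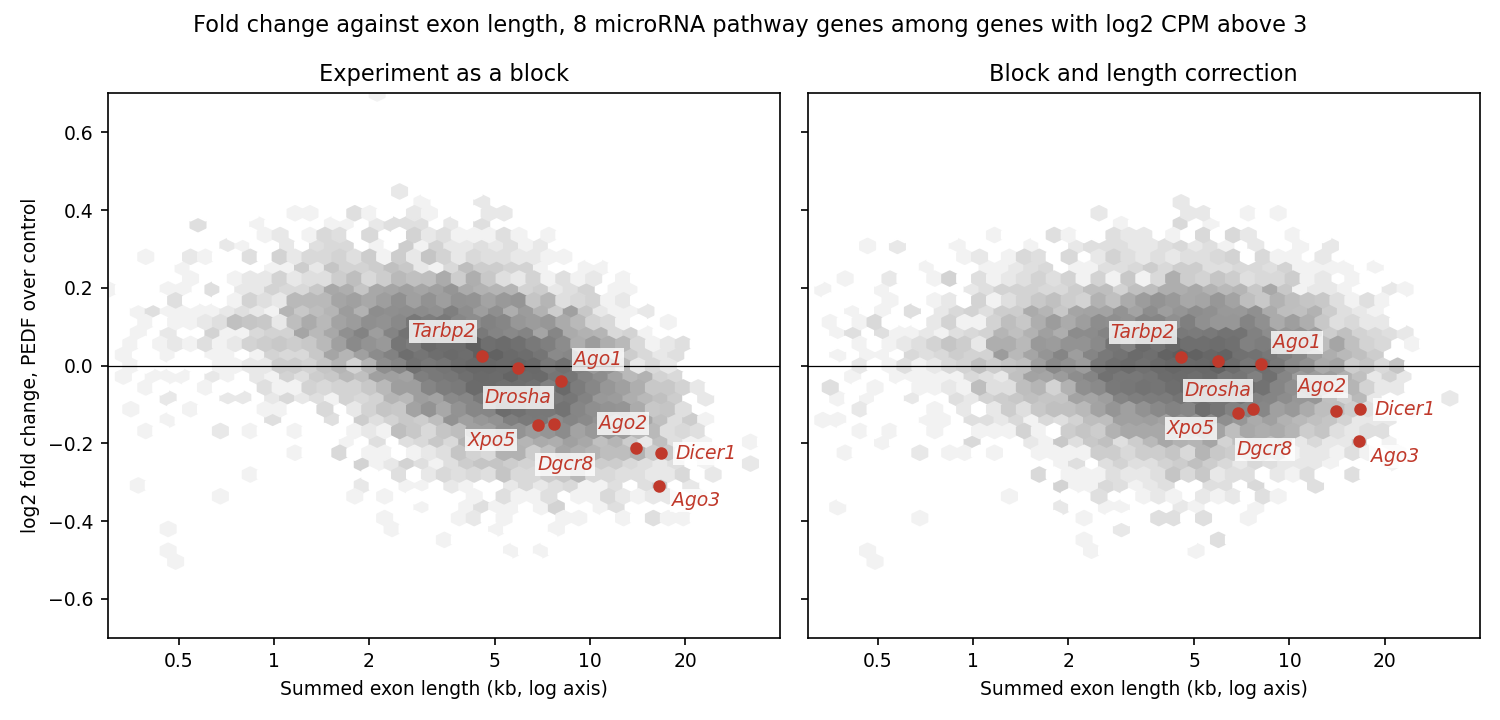
Log2 fold change of PEDF over control (y axis, values beyond the axis drawn at its edge) against summed exon length (x axis, log scale, kb) for genes whose mean log2 CPM exceeded 3, as hexagons darker with more genes, with the experiment as a block (left) and with the length trend also removed (right). Red points are 8 of the 9 genes, Ago4 being below this level. On the left Dicer1, Ago2 and Ago3 sat at the long, low end of the trend, and on the right they lay at -0.11, -0.12 and -0.19.

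In all 4 libraries Ago2 made up the most of the Argonaute transcripts, followed by Ago1, Ago3 and Ago4. Ago2 made up 55.0% and 57.4% of the summed Argonaute TPM in control 1 and 2 and 52.2% and 54.9% in PEDF 1 and 2, or 56.2% ± 1.7 (SD, n = 2) with control and 53.6% ± 1.9 (SD, n = 2) with PEDF. In each experiment the share was lower with PEDF by less than 3 points. Both PEDF shares lay below both control shares, but PEDF 2 (54.94%) and control 1 (55.03%) hardly differed. Ago1 made up 36.7% and 33.4% with control and 39.3% and 36.0% with PEDF, and these overlapped. Ago3 took 6.58% and 7.09% with control and 5.91% and 6.30% with PEDF, so both PEDF shares lay below both control shares. Ago4 took 1.68% and 2.05% with control and 2.57% and 2.78% with PEDF, so both PEDF shares lay above both control shares. The summed level was 50.8 and 56.9 TPM in the controls and 47.4 and 48.5 TPM in the PEDF libraries. These shares are given as a description, without a test. They are parts of 1 sum, so they do not move independently. For levels of single genes, both PEDF libraries lay below both controls in 18.4% of all genes and above in 18.9%.

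**Figure D4:**
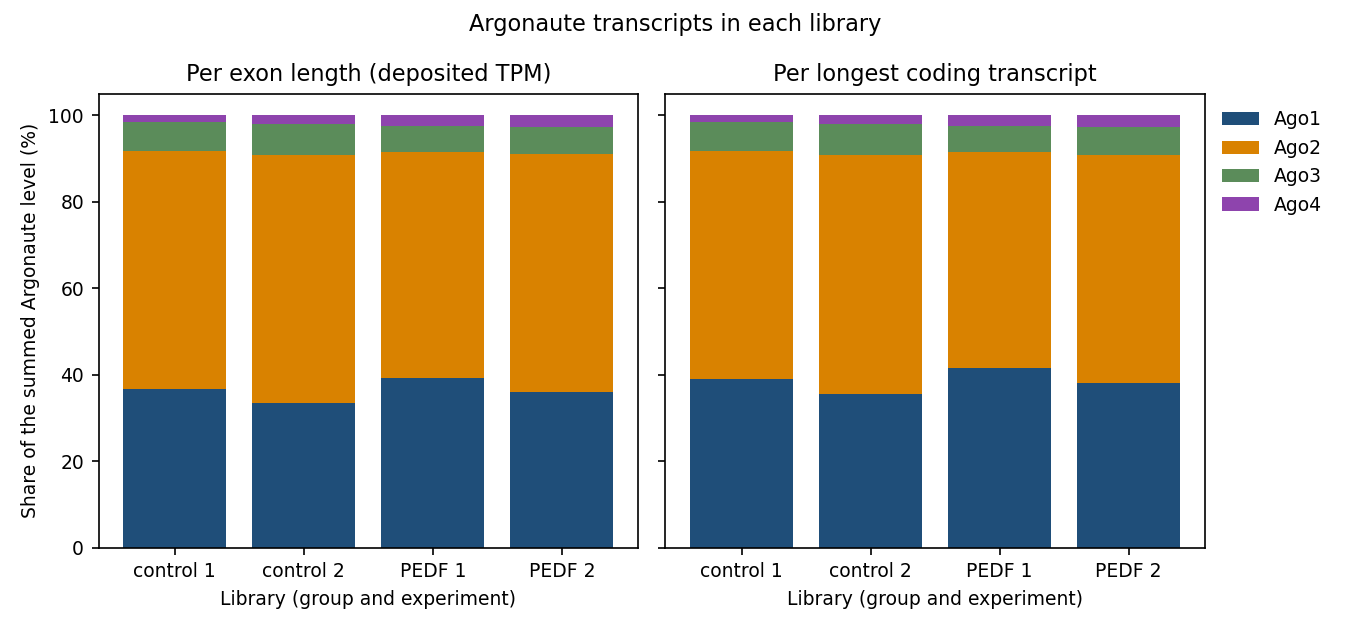
Share of each Argonaute (stacked bars, %) in the summed Argonaute level of each library (x axis), from the deposited TPM (left) and from CPM per kb of the longest protein-coding transcript (right). In every bar Ago2 had the largest share, at most 57.4%, and Ago1 the next.

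The experiments were compared as well, with the treatment as a covariate. Here 1 of the 9 genes passed the adjusted p of 0.05 in edgeR, beside 4.49% of all genes, or 2.3% as higher in experiment 2. This was Xpo5, with 111 and 99.1 CPM in experiment 1 and 126 and 114 CPM in experiment 2, where both libraries of experiment 2 lay above both of experiment 1. The log2 difference was 0.19 ± 0.055 (SE) with an adjusted p of 0.0201, and 0.17 ± 0.053 (SE) with an adjusted p of 0.0756 once the length trend was removed. By p, Ago2 was next, at 0.11 ± 0.052 (SE) with an adjusted p of 0.264 in edgeR. Ago4 (0.23), Ago3 (0.15) and Dgcr8 (0.12) had larger fitted differences with larger p. The difference of Ago2 between the experiments was seen in the controls, with a log2 ratio of 0.19 (95% interval 0.10 to 0.27), and less in the PEDF libraries, with 0.037 (-0.050 to 0.12), and that of Dicer1 was likewise 0.15 (0.052 to 0.26) and -0.00419 (-0.11 to 0.10). With 1 library of each kind, whether these differ was not tested. Ago1 was the only one of the 9 genes with a lower fitted level in experiment 2, at -0.086 ± 0.071 (SE) with an adjusted p of 0.653.

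The other genes of the pathway were examined in 8 lists, 40 genes in all, of which 37 were tested. Without the block 0 of the 37 had an adjusted p under 0.05 in edgeR, and 3 (Ddx17, Pan3 and Edc4) had an unadjusted p under 0.05, beside 6.88% of all genes. With the block, 2 of the 37 fell and 0 rose, beside 2.07% of all genes called lower. PEDF lay below control in both experiments for 23 of the 37, beside 28.8% of all genes, and above in both for 6, beside 30.1%. The median log2 fold change over the 37 was -0.070. The counts below and above control, here and by list, were taken without the length correction. Removing the length trend in edgeR's fit with the block moved the most abundant gene of each list, Piwi genes aside. Ddx6 went from -0.11 to -0.070, Dhx9 from -0.12 to -0.057 and Zswim8 from -0.12 to -0.073. Tnrc6a went from -0.065 to 0.022, Ddx5 from -0.054 to -0.038, Cnot8 from 0.0030 to -0.045 and Hsp90ab1 from 0.044 to 0.0049.

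The 2 genes that fell were Ddx17 and Edc4. Ddx17, an RNA helicase that works with the Microprocessor, had 443 and 493 CPM in control 1 and 2 and 382 and 424 CPM in PEDF 1 and 2. Both PEDF libraries lay below both controls, and the log2 fold change with the block was -0.22 ± 0.045 (SE) with an adjusted p of 0.000137 in edgeR, or 0.00797 with the length trend removed as well. DESeq2 with the block gave it an adjusted p of 0.0132. It also differed between the experiments, with an adjusted p of 0.0196. Edc4, a scaffold of the decapping complex, had 105 and 112 CPM in the controls and 91.8 and 101 CPM in the PEDF libraries. Its log2 fold change with the block was -0.18 ± 0.057 (SE) with an adjusted p of 0.0479 in edgeR. With the length trend removed it was little changed, at -0.16 ± 0.054 (SE), with an adjusted p of 0.115. DESeq2 with the block gave Edc4 an unadjusted p of 0.0848 and no adjusted p.

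By list, all 4 Microprocessor cofactors and all 6 decapping and decay genes lay below control in both experiments, beside 28.8% of all genes, with 1 called lower in each list in edgeR's fit with the block, beside 2.07%. Ddx5, the helicase paralogue of Ddx17, was the most abundant cofactor at a mean of 317 TPM, and its log2 fold change was -0.053 with an adjusted p of 0.909 in edgeR. Ddx6, a helicase of decapping and the most abundant of the decay list at 77.9 TPM, was at -0.11 with an adjusted p of 0.763 in edgeR. Of the 5 export, dicing and loading partners, 4 lay above control in both experiments, beside 30.1% of all genes, and 0 were called. Hsp90ab1, the chaperone that helps load Argonaute, led this list at 2532 TPM with a log2 fold change of 0.044.

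Downstream of Argonaute, 0 of the 3 GW182 proteins, which bridge Argonaute to the deadenylases, were called in edgeR's fit with the block, beside 3.75% of all genes, and Tnrc6a was the most abundant at 24.8 TPM. Of 9 deadenylation genes 0 were likewise called, 6 lay below control in both experiments, beside 28.8% of all genes, and Cnot8 was the most abundant at 57.3 TPM. Among genes of microRNA and Argonaute turnover, Zswim8, part of the ubiquitin ligase that removes Argonaute during target-directed microRNA decay, led with 67.4 TPM and a log2 fold change of -0.12. Lin28a, which blocks let-7 processing in early embryonic cells, had 0 to 2 counts and was not tested. Of the helicases and FMRP, Dhx9 led at 73.0 TPM, and 0 of 3 were called beside the same 3.75%. The germline Piwi Argonautes were near the floor: Piwil1 had 0 counts in all 4 libraries, Piwil4 had 1 to 3 and Piwil2 had 2 to 8.

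**Figure D5:**
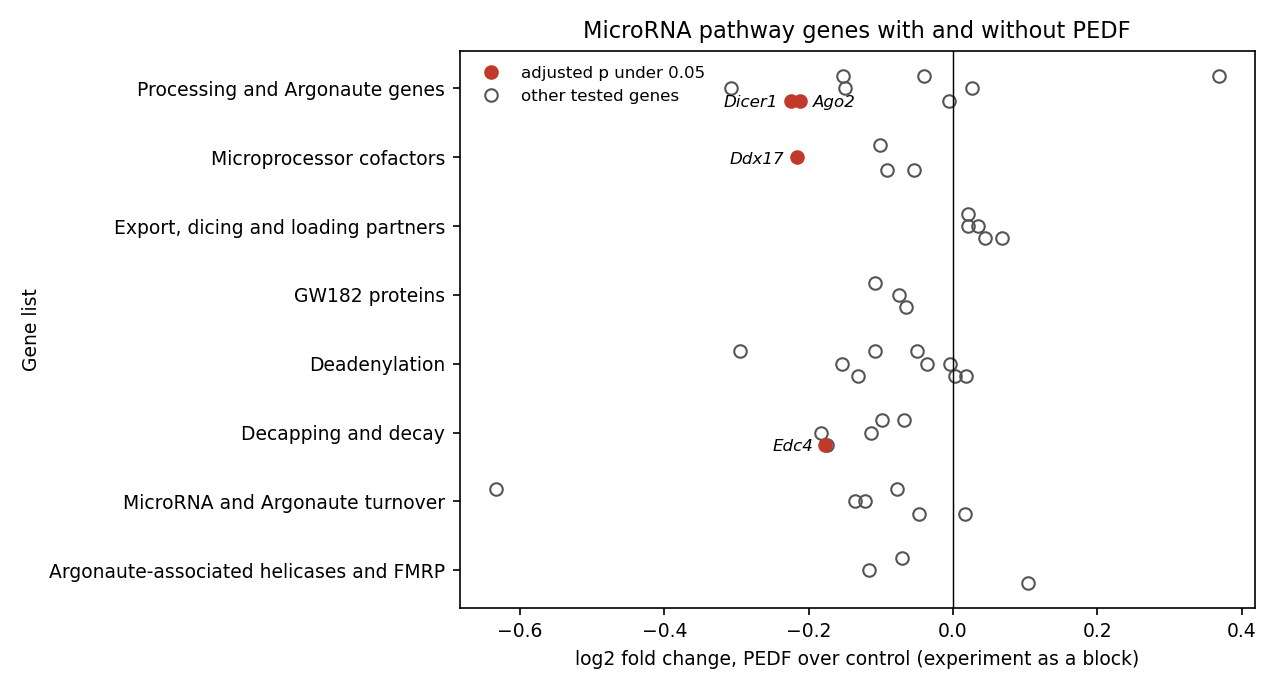
Log2 fold change of PEDF over control with the experiment as a block (x axis) for the 9 genes and for the tested genes of 7 pathway lists (y axis), each circle 1 gene. Filled circles have an adjusted p under 0.05 in edgeR. The 4 filled circles, Dicer1, Ago2, Ddx17 and Edc4, all lie between -0.23 and -0.17.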

How the data were processed

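Directional libraries of polyadenylated RNA were sequenced from both ends. According to the submitters' processing notes and the study's methods, the authors used Trimmomatic 0.38 for trimming, HISAT2 2.1.0 for alignment to mm10 and featureCounts 1.6.3 for counting uniquely mapped reads on genes. They deposited raw counts and, in a separate table, TPM values. The annotation, the strand setting and the TPM conversion are not given in the sources used here. For 54784 of 55487 genes the coordinates were those of GENCODE M21 (GRCm38), and 98.1% of the lengths recovered as count over TPM equalled its summed exon length. Every row named a gene.

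The counts were analyzed with edgeR 4.0.16 in R 4.3.3 (TMM, quasi-likelihood test, robust dispersions). Genes needed 10 counts summed over the libraries, which 19384 had, and Benjamini-Hochberg adjustment ran over all of them. Each standard error is the size of the log2 fold change divided by the square root of F. The main comparison of PEDF had no covariate, as the study's methods name none. Libraries of an experiment share embryos according to the labels, and the difference between experiments in control correlated with that in PEDF over 10722 genes (r = 0.423). This is a correlation across genes, and genes are not independent replicates. The experiment was therefore also fitted as a block. The length correction fitted each library's log2 ratio to the overall mean by a natural spline on log2 length (5 degrees of freedom), and the trend became an offset. Alternatives were DESeq2 1.42.0, limma 3.58.1 on log2(TPM + 1), RLE factors, other filters and each library left out. The code was tested on simulated data.

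The genes and lists were chosen with earlier results of these data known. The text names all 9 genes, the other pathway genes with an adjusted p under 0.05 in either fit (at most 10), and the gene of highest mean TPM in each list. Cell type markers, Lin28a, Piwil1, Piwil4 and the genes that overlap or share sequence with the 9 are named beside them. Pan3 is named outside this rule and was chosen after its values were seen. Division by the longest protein-coding transcript was chosen after seeing the data. Matches of 50-mers were counted over all M21 transcripts on either strand. With 3 counts as the limit that 0 counts allow, intervals and limits cover counting error only. Other shared stretches are not reported here.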

Additional observations from a re-analysis of the deposited data

How the results depend on the processing

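No gene of the 9 passed for PEDF without the block under RLE factors, no filter on low counts, filterByExpr, DESeq2 or limma. The replicate block gave 2 in edgeR, and 0 with the length correction. Over all genes the main fit called 1, the replicate block 726, the block with length correction 325, no filter 106, filterByExpr 0, limma 0, DESeq2 3 and DESeq2 with the replicate block 119, where Ago2 lost its call (adjusted p 0.209) and 7 of the 9 genes, Dicer1 included, had no adjusted p. Leaving out 1 library gave 2 to 205 calls, the most without control 1 and 24 without PEDF 2. Between the experiments, calls over all genes went from 870 to 11 without the treatment term, 526 with the length correction, 102 in DESeq2 and 1 in limma. Xpo5 then lost its call without the treatment term (adjusted p 0.609 in edgeR), with the length correction (0.0756 in edgeR) and in limma (0.329). Its log2 difference was 0.19, 0.17 and 0.24 in these 3 fits, beside 0.19 in the main one. This left 0 of the 9 in each, and in DESeq2 all 9 lacked an adjusted p.

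The direction for PEDF was the same under all alternatives for Dgcr8, Xpo5, Dicer1, Ago2, Ago3 and Ago4, but its size was not. With a library left out, the log2 fold change of Xpo5 ranged from -0.26 (without PEDF 2) to -0.056 (without PEDF 1) and that of Dgcr8 from -0.23 to -0.080 for the same libraries. Without control 1 and without control 2, Ago2 was at -0.30 and -0.12, Dicer1 at -0.30 and -0.15, Ago3 at -0.42 and -0.19, and Ago4 at 0.18 and 0.59. Signs turned only near 0 and without a call: Drosha to 0.012 with the block and length correction, while with a library left out it ranged from -0.045 to 0.035, being 0.00564 without PEDF 2; Ago1 to 0.00340 with the block and length correction and, with a library left out, ranged from -0.12 to 0.043; and Tarbp2 ranged from -0.00146 without control 1 to 0.053. The experiment difference of Dicer1 turned to -0.00819 with the length correction. With the longest transcript as length, the Ago2 share was 54.0% in control and 51.4% in PEDF libraries, and CPM per kb of exon gave the same shares as TPM.

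With 2 libraries a group, the spread rests on few samples, and leaving out a library of the experiment comparison leaves no residual degrees of freedom, so it was not run. Whether the length trend came from the cells or from the RNA and libraries was not tested. Ago4 had 31 to 58 counts a library, and its counting intervals are the widest of the 9 genes.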
